A study of Mus musculus with 52 samples.

Results

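Akap12, which encodes an A-kinase anchoring protein, and 9 genes of protein kinase A were followed through 52 mouse bone marrow RNA libraries. The 9 genes are the catalytic subunits Prkaca and Prkacb, the regulatory subunits Prkar1a, Prkar1b, Prkar2a and Prkar2b, and the kinase inhibitors Pkia, Pkib and Pkig. They were taken by symbol. All 10 had a row among the 13566 genes of the haematopoietic stem cell (HSC) table and among the 15168 genes of the stroma table. Akap12 was chosen with its levels in these libraries known, so its values are given as a description with no test. The 9 others make up the family of kinase subunits and inhibitors whatever their values, and they were tested.

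Mice received sulprostone (an agonist of the prostaglandin receptor EP3), rivenprost (an EP4 agonist), sulprostone plus rivenprost, misoprostol (a prostaglandin E1 analogue that acts on several EP receptors) or vehicle, 30 min before total body irradiation with 853 cGy. Marrow was taken 1 h after irradiation, and each group held 2 male and 2 female mice. Sorted HSC and enriched stroma were both sampled in these 5 groups. Stroma alone had irradiated mice given dmPGE2 (a dimethyl analogue of prostaglandin E2, written PGE in the labels), non-irradiated mice given dmPGE2 and non-irradiated mice given vehicle. Doses of the agonists, strain and age are not given in the sources used here. The HSC were cells of the SLAM-LKS phenotype, and stroma was the marrow fraction negative for CD45 and Ter119, enriched magnetically.

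The 8 HSC markers summed to between 1143 and 2441 CPM (counts scaled to library size) in HSC libraries and to between 185 and 485 CPM in stroma. The 6 markers of Cxcl12-abundant mesenchymal cells summed to between 3589 and 19155 CPM in stroma, whereas 3 of them were measured in HSC and summed to at most 53.5 CPM. Granulocyte markers were still present in stroma, at sums of 805 to 11667 CPM. HSC sulprostone library 1 stood apart, with a granulocyte sum of 12015 CPM and an erythroid sum of 9884 CPM, and it also held the lowest HSC marker sum and the highest mesenchymal sum of the HSC libraries. Without it the HSC marker sums of that fraction began at 1661 CPM and the mesenchymal sums ended at 10.5 CPM. Results that rest on it are also given without it. In such bulk libraries, fewer cells of a type and less RNA per cell cannot be told apart. The libraries held a median of 40.8 M counts in HSC, with a range of 27.4 to 49.2 M, and a median of 55.6 M in stroma, with a range of 38.0 to 73.7 M.

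Protein kinase A is the main sensor of cyclic AMP. In its resting form a pair of regulatory subunits holds a pair of catalytic subunits inactive, and binding of cyclic AMP to the regulatory subunits frees the catalytic ones. Regulatory subunits of type I (Prkar1a, Prkar1b) are mostly cytosolic, whereas those of type II (Prkar2a, Prkar2b) are held at membranes and the cytoskeleton by anchoring proteins. Akap12, also called gravin or SSeCKS, is one of these and carries type II kinase together with protein kinase C. The inhibitors bind the freed catalytic subunit as a pseudosubstrate and carry it out of the nucleus. EP4 couples mainly to the stimulatory G protein that raises cyclic AMP, and EP3 mainly to an inhibitory one that lowers it.

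The sequences upstream of these genes are shown with the Prkar1a call already known. Prkar1a, the member called in a comparison with a control, carries there the full cyclic AMP response element, the site bound by CREB. The part of this element in the Prkar1a level was not tested. RefSeq promoter windows on GRCm38.p6 were matched by symbol to 8 of the 10 genes, in 24 windows of 250 bases before a transcript start. Akap12 and Pkia had no window, so neither was searched for these motifs. The palindrome TGACGTCA was in 1 of the 24 windows and in 508 of all 32851 RefSeq windows (1.55%). The short core, TGACG or its reverse complement CGTCA, was in 7 of the 24 windows, which belong to 5 genes, and in 17.8% of all windows. Prkar1a had 6 of the 24 windows, 1 with the full element and 3 with the short core. The window with the full element overlaps another Prkar1a window (chr11:109650612-109650861). They share a short core, so that site is counted in both. Each full element also holds the short core on both strands. Sequences run 5′ to 3′ on the gene's strand and capitals mark these motifs. The Prkar1a window shown is chr11:109650699-109650948 (plus strand), the Prkaca window chr8:83972728-83972977 (plus strand) and the Prkar2b window chr12:32061278-32061527 (minus strand).
Prkar1a: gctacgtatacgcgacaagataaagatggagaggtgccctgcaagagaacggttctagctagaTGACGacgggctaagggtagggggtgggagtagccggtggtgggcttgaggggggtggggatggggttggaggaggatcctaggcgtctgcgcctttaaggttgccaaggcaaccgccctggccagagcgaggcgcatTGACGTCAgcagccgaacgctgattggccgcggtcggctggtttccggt
Prkaca: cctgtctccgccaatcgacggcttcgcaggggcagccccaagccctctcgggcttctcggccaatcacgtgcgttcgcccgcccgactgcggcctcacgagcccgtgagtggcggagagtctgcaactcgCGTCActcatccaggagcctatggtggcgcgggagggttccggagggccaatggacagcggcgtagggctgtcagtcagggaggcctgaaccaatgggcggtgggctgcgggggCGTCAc
Prkar2b: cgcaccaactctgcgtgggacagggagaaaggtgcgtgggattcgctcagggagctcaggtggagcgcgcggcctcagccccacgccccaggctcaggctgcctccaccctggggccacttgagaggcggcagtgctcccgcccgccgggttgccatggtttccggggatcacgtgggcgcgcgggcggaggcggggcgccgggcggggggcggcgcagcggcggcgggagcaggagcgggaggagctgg
In Prkar1a the first base of the full element lay 49 bases before the transcript start, which is also where the first exon begins in the deposited gene model. The same window held 1 further short core. Prkaca had 2 short cores, and the 2 windows of Prkar2b held neither motif. A match is a description of these letters and not a measured binding site.

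Akap12 (mm10 chr10:4266329-4359471, plus strand) was present in every stroma library and was lowest after irradiation with vehicle. Its 4 misoprostol libraries had 491, 401, 306 and 354 CPM, against 62.4, 80.5, 76.4 and 103 CPM in the irradiated vehicle libraries. Sulprostone libraries held 284, 265, 308 and 330 CPM. Every library of both treatments lay above every vehicle library. With dmPGE2 before irradiation the values were 230, 367, 147 and 262 CPM. The libraries given both agonists had 154, 169, 197 and 182 CPM, again above all 4 vehicle libraries. Rivenprost gave 102, 167, 185 and 163 CPM, and its lowest library fell just under the highest vehicle library, so these 2 groups overlapped.

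Relative to irradiated vehicle, Akap12 stood 4.82-fold higher with misoprostol (log2 fold change 2.27 ± 0.25, SE), 3.69-fold with sulprostone (1.88 ± 0.25) and 3.13-fold with dmPGE2 (1.64 ± 0.24). It stood 2.19-fold higher with both agonists (1.13 ± 0.24) and 1.92-fold with rivenprost (0.94 ± 0.24). All 5 share the same vehicle libraries, so their values are not independent of each other. Genes whose treated libraries all lay above the vehicle libraries made up 3.63% of all genes with misoprostol, 1.6% with sulprostone, 9.41% with dmPGE2 and 9.16% with both agonists. Since Akap12 was chosen on these values, nothing is read from the setting of its own pattern against those shares.

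**Figure D1:**
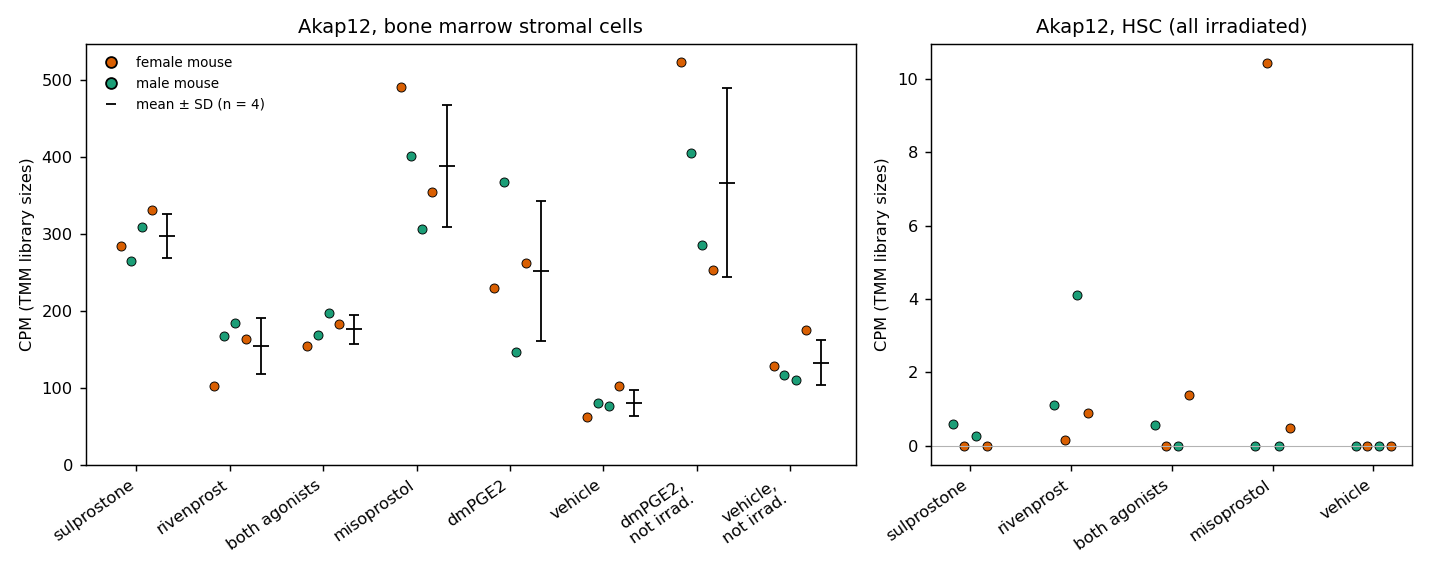
Akap12 level in CPM on linear axes for each library, with treated groups left of their vehicle, in stroma (left) and HSC (right, on its own scale); black dashes with bars are means with SD over 4 libraries, drawn for stroma only. In stroma the misoprostol, sulprostone, dmPGE2 and combined-agonist libraries all sit above the irradiated vehicle libraries, and in HSC the 4 vehicle libraries are at 0 CPM.

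Without irradiation, Akap12 was also higher with dmPGE2. The 4 non-irradiated dmPGE2 libraries had 523, 404, 285 and 253 CPM, against 128.6, 117.03, 110 and 175 CPM in non-irradiated vehicle libraries, a log2 fold change of 1.47 ± 0.24 (SE) with no overlap. Genes without overlap in that direction were 3.42% of all genes. Irradiated vehicle libraries lay below all non-irradiated vehicle libraries, at a log2 fold change of -0.72 ± 0.24, beside 2.53% of all genes that were lower without overlap. Irradiated against non-irradiated dmPGE2 gave -0.54 ± 0.24 with overlapping libraries. The difference between the dmPGE2 effects with and without irradiation was 0.18 ± 0.34, less than its own error, and it takes the opposite sign (-0.10) without irradiated dmPGE2 library 2, the highest of that group.

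Ordered by mean level, stroma Akap12 stood at 388 ± 78.8 CPM with misoprostol (SD, n = 4 in every group), 366 ± 123.2 CPM with dmPGE2 and no irradiation, 297 ± 28.6 CPM with sulprostone and 251 ± 91.3 CPM with dmPGE2. Below these came 176 ± 18.4 CPM with both agonists, 154 ± 36.1 CPM with rivenprost, 132.7 ± 29.3 CPM in non-irradiated vehicle and 80.5 ± 16.7 CPM in irradiated vehicle. Of the 7 pairs of neighbours in this order, the 2 vehicle groups were the pair whose libraries did not overlap. Between compounds, rivenprost libraries (log2 fold change -0.94 ± 0.24) and libraries given both agonists (-0.75 ± 0.24) all lay below every sulprostone library, beside 1.7% and 5.29% of all genes that did so. Misoprostol libraries all lay above every rivenprost library (1.33 ± 0.24) and above every library given both agonists (1.14 ± 0.24), beside 0.277% and 0.824% of all genes. Misoprostol and sulprostone overlapped and differed by 0.39 ± 0.24.

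The irradiated stroma mice carry a lower and a higher run of numbers in the labels, with 2 mice of each group in either. The non-irradiated groups have 2 mice each in the lower run, 1 in the higher run and 1, library 4, with a number well above that run. Within the lower numbers, Akap12 exceeded vehicle by 2.65 with misoprostol, 2.04 with dmPGE2, 1.95 with sulprostone, 1.19 with both agonists and 0.88 with rivenprost, as a difference of mean log2 CPM. Within the higher numbers the differences were 1.89, 1.15, 1.85, 1.10 and 0.97 for the same treatments. Misoprostol was highest in both runs, and sulprostone and dmPGE2 changed places between them. The runs split the libraries on which Akap12 was chosen, so these values are a description and not separate support. Summed endothelial markers (7 of 7 measured) overlapped between treated and vehicle stroma, with 386.3 to 630 CPM for misoprostol, 446 to 660 CPM for sulprostone and 313 to 513 CPM for irradiated vehicle. Pericyte markers (6 of 6 measured) likewise overlapped, at 14.4 to 49.0 CPM, 30.2 to 64.2 CPM and 26.7 to 47.7 CPM for the same groups. The part of these cell types in the Akap12 levels was not tested.

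In HSC, Akap12 was near the limit of detection. Rivenprost libraries held 55, 7, 170 and 33 counts and all 4 vehicle libraries held 0. Misoprostol libraries held 0, 401, 0 and 23 counts, libraries with both agonists 21, 0, 0 and 61, and sulprostone libraries 14, 0, 11 and 0. Rivenprost was therefore the HSC group with Akap12 counts in all its libraries, and 10 of the 20 HSC libraries held none.

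A count of 3 over the vehicle group, the limit that a count of 0 allows, corresponds to 0.0190 CPM. Against it, mean Akap12 was at least 144-fold higher with misoprostol (2.73 CPM), at least 82.8-fold with rivenprost (1.57 CPM), at least 25.8-fold with both agonists (0.489 CPM) and at least 11.1-fold with sulprostone (0.211 CPM). The limit covers counting error only and not the spread between mice. In the edgeR fit the 95% intervals over the 4 comparisons lay between -0.29 and 17.3 on the log2 scale. Each value rests largely on 1 library. Without library 2 (10.4 CPM, the others at most 0.487 CPM) the misoprostol bound is at least 8.55-fold. Without library 3 the rivenprost bound is at least 38.1-fold, without library 4 that of both agonists is at least 10.1-fold, and without library 1, the one apart in its markers, that of sulprostone is at least 4.61-fold. Of all genes, 3.42% had every rivenprost library above every vehicle library. Summed endothelial markers (6 of 7 measured) were 95.5 to 140 CPM in rivenprost HSC and 75.5 to 103 CPM in vehicle HSC, and misoprostol library 2 had the lowest sum of all, 65.6 CPM. Their part in the Akap12 counts was not tested.

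Levels of different genes were compared as CPM per kilobase of exon. In stroma, Akap12 had a median of 30.6 CPM per kilobase over 32 libraries, between Prkaca at 37.2 and Prkacb at 18.7. In HSC its median was 0.0126 CPM per kilobase, while Prkaca stood at 36.8 and Prkacb at 36.7. HSC and stroma libraries were made with different kits from different amounts of RNA, so their levels stand side by side without a test.

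Prkar1a was the most abundant of the 10 genes per kilobase in both cell fractions, with medians of 260 CPM per kilobase in HSC and 136.6 in stroma. Prkar2b followed, at 67.3 in HSC and 88.6 in stroma, and then Pkig, the gamma form of the kinase inhibitor, at 58.6 and 39.6. Prkar2a stood at 7.98 and 10.1 CPM per kilobase. Prkar1b, a type I subunit best known from brain, was at 0.690 and 0.598, and 8 of 20 HSC libraries held no count of it. The inhibitor Pkia was at 5.41 in HSC and 1.47 in stroma, and Pkib at 0.585 and 0.411.

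**Figure D2:**
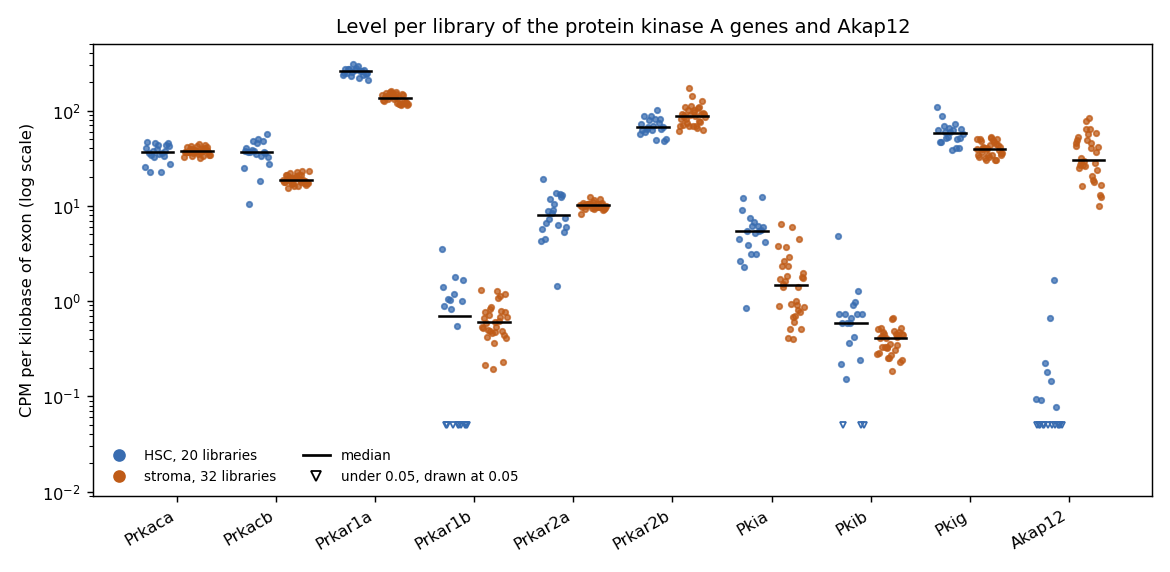
Level of each gene in CPM per kilobase of exon on a log axis, 1 point per library (20 HSC libraries left, 32 stroma libraries right for each gene), with medians as black lines; open triangles are libraries under 0.05. Prkar1a is highest in both fractions, and Akap12 has a median of 30.6 in stroma while most HSC libraries lie under 0.05.

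Summed per kilobase, regulatory subunits exceeded catalytic subunits in every library. The ratio had a median of 4.49 in HSC (range 3.10 to 10.2) and of 4.15 in stroma (3.41 to 5.89). Type II subunits made up 23.0% of the regulatory sum in HSC, with libraries from 17.99% to 29.2%, and 41.0% in stroma, with libraries from 32.7% to 56.2%. These library ranges did not overlap, but the fractions were made with different kits, so cell type and kit cannot be told apart. Prkar2b supplied 88.6% of the type II sum in HSC and 89.6% in stroma. Prkacb supplied 49.0% of the catalytic sum in HSC and 33.1% in stroma. Pkig supplied 91.0% and 95.5% of the inhibitor sum. Group means of the type II share ran between 21.1% (vehicle) and 25.3% (misoprostol) in HSC, and between 38.6% (sulprostone) and 44.9% (non-irradiated vehicle) in stroma.

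Among the kinase genes, 1 change passed the test across all comparisons with a control: Prkar1a, the type I alpha subunit, rose with rivenprost in stroma. Rivenprost libraries had 486, 525, 532 and 472 CPM, against 411, 400, 379 and 389 CPM in irradiated vehicle libraries. All 4 treated libraries lay above all 4 vehicle libraries. The mean was 504 ± 29.3 CPM with rivenprost and 395 ± 13.7 CPM with vehicle (SD, n = 4 each), a log2 fold change of 0.35 ± 0.09 (SE, 95% interval 0.17 to 0.53), or 1.28-fold, with an adjusted p of 0.0448 by edgeR's quasi-likelihood test. In that comparison 1 of the 9 kinase genes was called, beside 1.13% of all genes called and 0.903% called higher, and 2.93% of all genes were higher without overlap. Leaving out any vehicle library, or rivenprost library 1, 2 or 3, ended the call at adjusted p-values of up to 0.171, and so did fitting the 2 groups alone (0.221) or scaling by library totals (0.106), while the log2 fold change kept between 0.29 and 0.39.

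Added after seeing the data, a block for sets of consecutive mouse numbers took the place of the sex term. Each set held at most 1 mouse of each group, all of 1 sex. Non-irradiated dmPGE2 and vehicle library 4, numbered apart, formed a set of their own. With the block the rivenprost adjusted p was 0.0052 by edgeR, beside 2.5% of all genes called. Summed monocyte and macrophage markers (7 of 7 measured) were 246 to 357 CPM in rivenprost stroma and 361 to 430 CPM in irradiated vehicle stroma, without overlap, and their part in the Prkar1a level was not tested.

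The other agonists gave Prkar1a values in the same direction that were not called without the block. Misoprostol stroma had 514, 495, 441 and 464 CPM (mean 478 ± 32.5), a log2 fold change of 0.28 and an adjusted p of 0.152 by edgeR, 0.0391 by DESeq2 (2.49% of all genes called) and 0.0262 by edgeR with the block (2.33% of all genes called), so both make it a call. With both agonists the libraries held 503, 473, 467 and 435 CPM (469 ± 28.2, log2 fold change 0.25, adjusted p 0.121 by edgeR), and the block made this a call too (adjusted p 0.0212, beside 8.85% of all genes called). Sulprostone libraries held 486, 431, 423 and 456 CPM (449 ± 28.2, log2 fold change 0.19, adjusted p 1 by edgeR). These 3 groups also lay wholly above the shared vehicle libraries, beside 3.63% of all genes with misoprostol, 9.16% with both agonists and 1.6% with sulprostone. With dmPGE2 before irradiation the libraries held 490, 490, 415 and 401 CPM (449 ± 47.7, log2 fold change 0.19, adjusted p 0.29 by edgeR) and overlapped vehicle. The rivenprost and sulprostone effects were also compared directly: rivenprost exceeded sulprostone by 0.17 (95% interval -0.01 to 0.35) in stroma Prkar1a, which did not pass the test.

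Without irradiation, Prkar1a was at 491, 518, 400 and 452 CPM with dmPGE2, against 387, 391, 380 and 390 CPM with vehicle. These 2 groups did not overlap, beside 3.42% of all genes that were higher without overlap. The log2 fold change was 0.27 ± 0.09 (SE) with an adjusted p of 0.0948 by edgeR, 0.0112 by DESeq2 (6.39% of all genes called) and 0.0142 by edgeR with the block (9.43% of all genes called), so both make it a call. Irradiated and non-irradiated vehicle differed by 0.03. Within the mice of lower number, Prkar1a exceeded irradiated vehicle by 0.32 with rivenprost, 0.32 with misoprostol, 0.27 with both agonists, 0.27 with dmPGE2 and 0.18 with sulprostone, as differences of mean log2 CPM. Within those of higher number the differences were 0.38, 0.24, 0.23, 0.09 and 0.19. Each was above 0 in both runs. The runs split the libraries already described, and within a run all treatments share the same 2 vehicle libraries. The signs are therefore a description and not separate support.

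**Figure D3:**
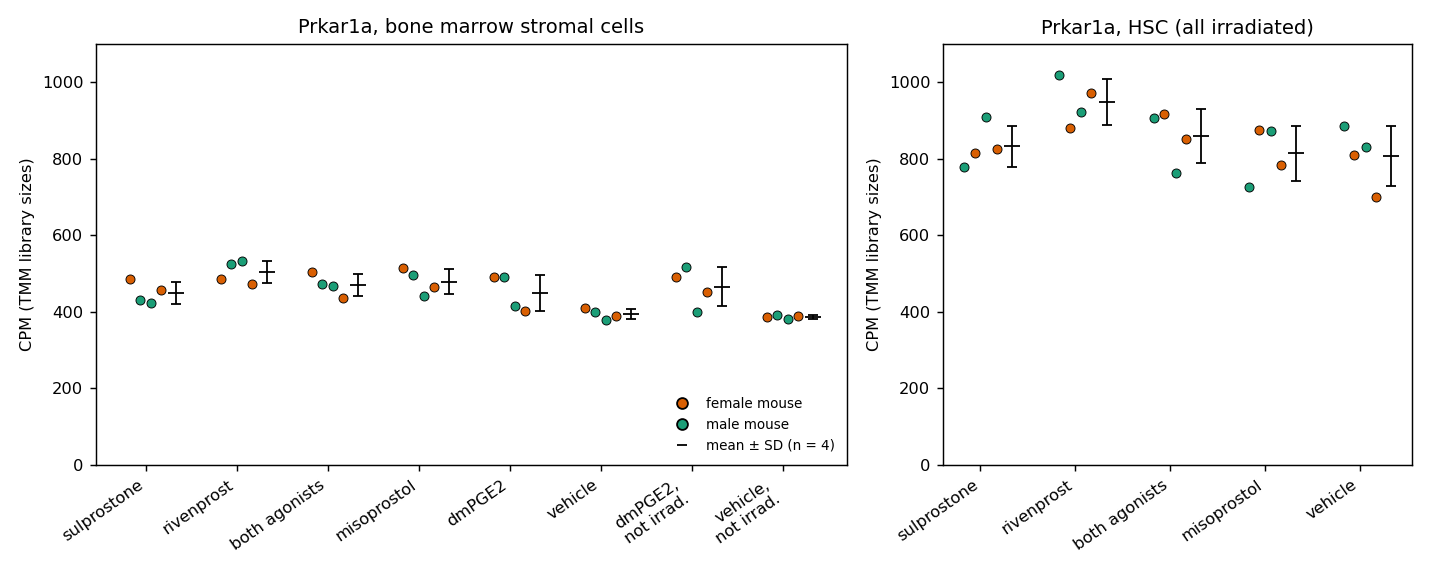
Prkar1a level in CPM on a shared linear axis from 0 for each library, with treated groups left of their vehicle, in stroma (left) and HSC (right); black dashes with bars are means with SD over 4 libraries. Stroma rivenprost libraries run from 472 to 532 CPM and lie above the irradiated vehicle libraries at 379 to 411 CPM, and HSC rivenprost and vehicle libraries overlap.

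In HSC, Prkar1a had 1018, 880, 921 and 971 CPM with rivenprost, against 885, 809, 832 and 699 CPM with vehicle. The lowest rivenprost library fell under the highest vehicle library. The log2 fold change was 0.23 ± 0.11 (SE, adjusted p 0.767 by edgeR). The 3 other HSC treatments gave log2 fold changes of 0.02 to 0.09.

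Prkar2b, the type II beta subunit, was called in no comparison. In HSC it stood at 253 ± 38.1 CPM with rivenprost and 257 ± 74.2 CPM with misoprostol, against 192 ± 33.7 CPM with vehicle (SD, n = 4 each), with log2 fold changes of 0.40 in both and adjusted p-values of 0.733 and 0.736 by edgeR. In stroma, rivenprost libraries had 273, 251, 339 and 578 CPM, against 317, 211, 306 and 286 CPM in vehicle libraries, a log2 fold change of 0.36 with a 95% interval of -0.14 to 0.86. The rivenprost spread comes mostly from library 4. Stroma Prkar2b had a median of 338 CPM in the 16 libraries of higher mouse number (both non-irradiated library 4 samples included) and of 245 CPM in the 16 of lower number. Megakaryocyte and platelet marker sums had medians of 1429 CPM in the libraries of higher number and 850 CPM in those of lower number, and their part in the Prkar2b level was not tested.

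Prkar2a, the type II alpha subunit, was called in no comparison. Rivenprost libraries had 42.3, 42.3, 42.0 and 41.8 CPM, above the vehicle libraries at 37.4, 38.4, 38.3 and 39.7 CPM. The log2 fold change was 0.13 (95% interval -0.05 to 0.31) in a comparison where 2.93% of all genes were higher without overlap. In HSC, Prkar2a spread from 5.77 to 77.5 CPM over the 20 libraries, and its largest log2 fold change was 0.42 with rivenprost (95% interval -0.71 to 1.55). Prkar1b stayed between 0.528 and 3.54 CPM in stroma and at or under 9.70 CPM in HSC, with no call.

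The catalytic subunits were called in no comparison. Prkaca, the alpha form, had 100.0, 108, 96.8 and 104 CPM in irradiated dmPGE2 stroma, against 96.7, 91.9, 85.1 and 85.1 CPM in irradiated vehicle stroma. These groups did not overlap, at a log2 fold change of 0.19 (95% interval -0.003 to 0.37, adjusted p 0.314 by edgeR), in a comparison where 9.41% of all genes were higher without overlap. Over the 9 stroma comparisons with a control, including the interaction, Prkaca log2 fold changes ran from -0.04 to 0.19 and those of Prkacb, the beta form, from -0.14 to 0.05. In HSC they ran from -0.34 to 0.04 for Prkaca and from -0.21 to 0.15 for Prkacb. Every HSC interval lay between -0.80 and 0.50 for Prkaca and between -0.91 and 0.85 for Prkacb.

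The inhibitors were also not called. Pkig ran from -0.09 to 0.27 over the 9 stroma comparisons and from 0.01 to 0.32 in HSC, on the log2 scale. HSC sulprostone library 1 had 155 CPM of Pkig, and the group mean of 94.5 ± 41.8 CPM became 74.3 ± 13.1 CPM without it, against 75.98 ± 13.97 CPM in vehicle. The same library had 29.2 CPM of Pkib, and the sulprostone mean of 9.62 ± 13.1 CPM became 3.09 ± 1.61 CPM without it, against 1.48 ± 2.05 CPM in vehicle. It also held the highest Prkar1b, 9.70 CPM. Pkia in HSC averaged 11.5 ± 7.29 CPM with both agonists and 25.9 ± 13.6 CPM with vehicle, a log2 fold change of -1.21 (95% interval -2.34 to -0.09) with an adjusted p of 0.652 by edgeR.

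Counted together, edgeR called 0 of 36 HSC tests (9 genes in 4 comparisons with vehicle), 4 had an unadjusted p under 0.05, and DESeq2 called 0. Of all 13566 genes, 611 had an unadjusted p under 0.05 by edgeR with sulprostone, 868 with rivenprost, 944 with both agonists and 894 with misoprostol. The background share of genes called in HSC was 0.0147% with sulprostone, 0.494% with rivenprost, 0.545% with both agonists and 0.251% with misoprostol. In stroma edgeR called 1 of 81 tests, 6 had an unadjusted p under 0.05, and with the block 4 were called, all of Prkar1a. Of all 15168 genes, between 379 (the interaction) and 2719 (both agonists) had an unadjusted p under 0.05 in a stroma comparison with a control. The background share of genes called in stroma was 0.105% with sulprostone, 3.09% with both agonists, 0.916% with misoprostol and 1.98% with dmPGE2 before irradiation. It was 0.771% for irradiated against non-irradiated vehicle, 3.76% for dmPGE2 without irradiation, 0.0461% for irradiated against non-irradiated dmPGE2 and 0.0264% for the interaction of dmPGE2 with irradiation. In the rivenprost comparison in stroma, 1 of 9 genes was called beside 1.13% of all genes. A single call is too few to say whether the family differs from the background. For Prkaca, Prkacb, Prkar1a, Prkar2a, Prkar2b and Pkig, the more abundant 6, the largest log2 fold change of either sign was 0.42 in HSC and 0.36 in stroma.

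**Figure D4:**
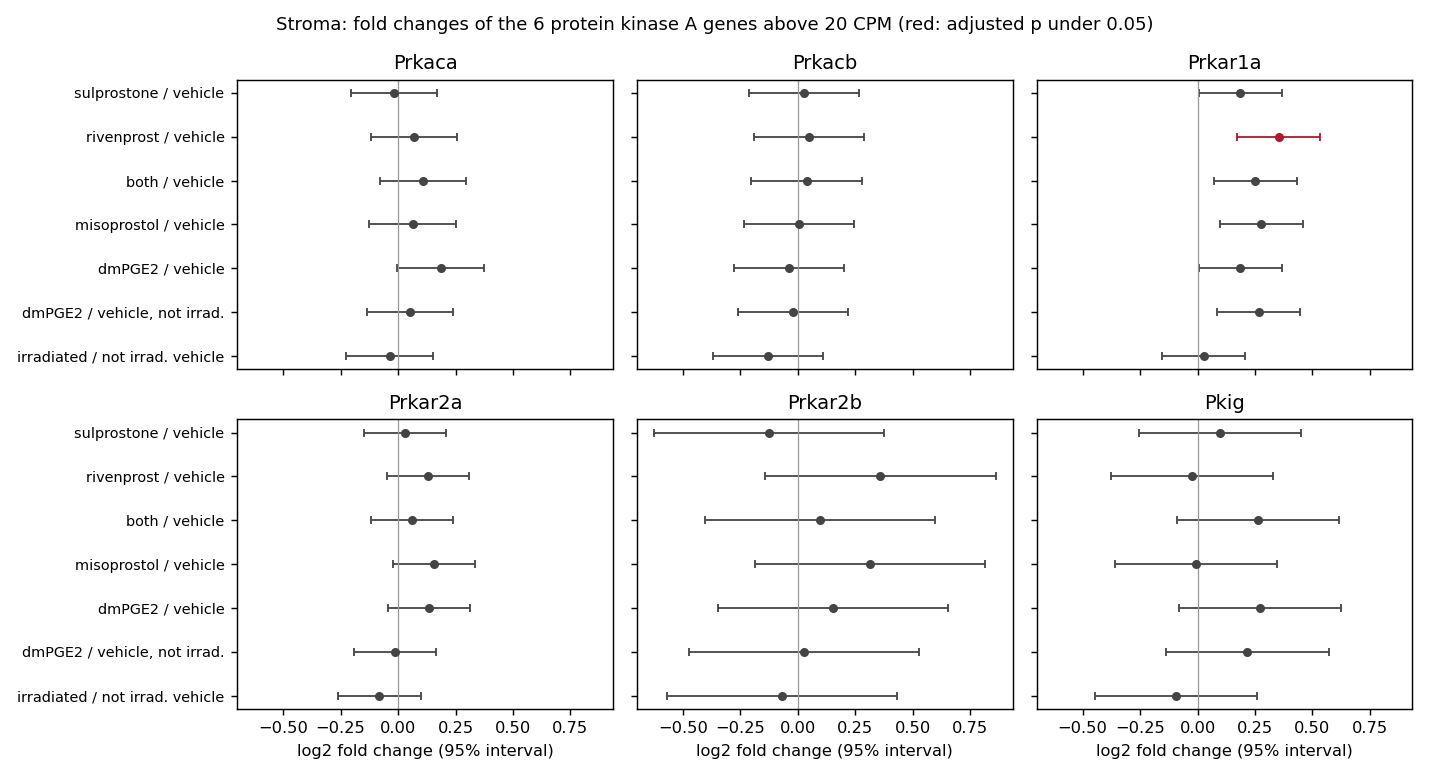
Log2 fold changes with 95% intervals from edgeR for the 6 kinase genes above 20 CPM, in 7 stroma comparisons with a control (treated or irradiated over control); red marks an adjusted p under 0.05. Prkar1a with rivenprost, at 0.35, is the red point, and the Prkar1a points of all treatments lie above 0 while the intervals of the 5 other genes include 0.

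Direct comparisons of compounds gave no kinase call. In HSC 54 gene tests over 6 pairs of treatments gave 0 calls by edgeR, 1 unadjusted p under 0.05 and 0 calls by DESeq2. In stroma 90 tests over 10 pairs gave 0 calls by edgeR, 1 unadjusted p under 0.05 and 0 by DESeq2. At that unadjusted threshold, 372 to 864 of all 13566 genes passed per HSC pair and 96 to 2856 of all 15168 per stroma pair. Over all genes, the pairs of rivenprost, both agonists and misoprostol with sulprostone called 0.332%, 0.243% and 0.0369% in HSC and 0.033%, 1.67% and 0.0132% in stroma, dmPGE2 against sulprostone called 1.28%, and every other pair called 0%. The doses of the compounds are not known here, so these are comparisons of the treatments as given. For stroma Prkar1a the 95% intervals over all 10 pairs lay between -0.35 and 0.35, and for Prkaca between -0.23 and 0.39. Females against males gave 0 calls in either fraction by edgeR and by DESeq2, with 0 unadjusted p-values under 0.05 in HSC and 2 in stroma, beside 0.0663% and 2.87% of all genes called. At the unadjusted threshold, 584 of all genes passed in HSC and 2123 in stroma.

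Lists of pathway genes were set beside the members. Of 23 other anchoring protein genes, 14 were measured in HSC and 20 in stroma. Of 15 cyclic AMP synthesis genes (G protein alpha subunits and adenylyl cyclases), 10 and 14 were measured. Of 15 other cyclic AMP effector genes, 11 and 13 were measured. In HSC edgeR called 0 members of these lists in the 4 comparisons with vehicle. Median log2 fold changes of the anchoring genes there ran from -0.26 with rivenprost to -0.11 with misoprostol, beside 0.00 for all genes in both.

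In stroma, Creb1, the transcription factor that protein kinase A phosphorylates, fell with 4 of 5 treatments before irradiation. It averaged 86.4 ± 8.00 CPM with both agonists, 90.5 ± 6.54 CPM with dmPGE2, 92.9 ± 11.7 CPM with misoprostol and 94.3 ± 18.5 CPM with rivenprost, against 132.005 ± 17.4 CPM with the vehicle they share (SD, n = 4 each). The log2 fold changes were -0.61, -0.54, -0.51 and -0.49 in that order, with adjusted p-values of 0.00347, 0.0123, 0.0312 and 0.037 by edgeR. With sulprostone Creb1 averaged 120 ± 14.9 CPM, a log2 fold change of -0.14 that was not called. Compared directly with sulprostone, Creb1 was called lower with both agonists (log2 fold change -0.47, adjusted p 0.0362 by edgeR), a call lost with the 2 groups alone and without any of 6 single libraries. Against sulprostone it was not called with dmPGE2 (-0.40, adjusted p 0.0805 by edgeR), misoprostol (-0.37, 0.29) or rivenprost (-0.35, 0.317). Without irradiation it averaged 89.8 ± 6.82 CPM with dmPGE2 and 111 ± 6.11 CPM with vehicle (log2 fold change -0.31, adjusted p 0.159 by edgeR). Creb1 was the 1 effector gene called in each of those 4 comparisons. Fitting the 2 groups alone ended all 4 calls, at adjusted p-values of 0.0505 for both agonists to 0.35 for rivenprost, while the fold changes kept their direction. Leaving out vehicle library 3 or 4 ended the calls with dmPGE2, misoprostol and rivenprost (adjusted p 0.0515 to 0.171), as did leaving out misoprostol library 1, 2 or 3 and rivenprost library 1 or 3 for their own comparisons, whereas no left-out library ended the call with both agonists. RLE size factors ended the rivenprost call (0.0504), and leaving out non-irradiated dmPGE2 and vehicle library 4 together ended those with misoprostol (0.0521) and rivenprost (0.0501). Lower calls made up 1.6%, 1.11%, 0.237% and 0.231% of all genes with both agonists, dmPGE2, misoprostol and rivenprost.

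Of the anchoring genes, Akap10 and Rab32 fell with both agonists in irradiated stroma. Akap10, which binds regulatory subunits of both types, averaged 30.3 ± 2.52 CPM with both agonists and 40.0 ± 1.55 CPM with vehicle (log2 fold change -0.40, adjusted p 0.0348 by edgeR). Rab32, a small GTPase that anchors the kinase at mitochondria, averaged 15.0 ± 3.92 CPM with both agonists and 30.3 ± 5.08 CPM with vehicle (-1.03, adjusted p 0.0312 by edgeR). Without irradiation, Ezr, which encodes the cytoskeletal linker ezrin, rose to 282 ± 75.7 CPM with dmPGE2, against 194 ± 27.6 CPM with vehicle (0.53, adjusted p 0.0356 by edgeR). Akap2 was called higher in the same comparison at very low levels, 0.457 ± 0.129 CPM with dmPGE2 and 0.0322 ± 0.0375 CPM with vehicle (adjusted p 0.0196 by edgeR). Gnal, the olfactory form of the stimulatory G protein alpha subunit, averaged 1.93 ± 0.559 CPM with dmPGE2 and 0.644 ± 0.270 CPM with vehicle (1.62, adjusted p 0.00671 by edgeR). It was the 1 synthesis gene called. Each of these 5 calls was lost with the 2 groups alone, at adjusted p-values of 0.0504 for Rab32 to 0.358 for Ezr. Those of Akap10 and Rab32 were each lost without any of 6 single libraries, that of Akap2 without any of 5 and that of Ezr without any of 4, all in the groups compared, and that of Gnal without non-irradiated dmPGE2 and vehicle library 4 together (adjusted p 0.0834). Dropping the sex term ended the Akap2 call (0.0788), scaling by library totals the Ezr call (0.0529), and the same pair of library 4 samples both (0.078 and 0.0552). The anchoring genes thus had 0 higher and 2 lower calls with both agonists, 2 higher and 0 lower with dmPGE2 without irradiation (where 1.77% of all genes were called higher), and 0 calls in the 7 other stroma comparisons with a control. Outside those comparisons 3 further calls were made in stroma, of genes named after their values were seen. Akap8l, an anchoring gene of the nucleus, averaged 40.2 ± 7.19 CPM with both agonists and 66.7 ± 19.4 CPM with sulprostone (-0.74, adjusted p 0.039 by edgeR), and this call was lost with the 2 groups alone and without any of 5 single libraries. Akap2 (-1.58, adjusted p 0.0403 by edgeR) and Bves, a cyclic AMP binding protein of the Popeye family (-0.88, adjusted p 0.0416 by edgeR), were called lower in females than in males, both at mean levels of at most 2.23 CPM, and were lost without any of 20 and 21 single libraries.

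Monocyte and macrophage marker sums (7 of 7 measured) lay lower without overlap in stroma with both agonists, at 165 to 321 CPM, with rivenprost, at 246 to 357 CPM, and with sulprostone, at 258 to 355 CPM, against 361 to 430 CPM in irradiated vehicle. With dmPGE2 (189 to 365 CPM) and misoprostol (151 to 391 CPM) they overlapped vehicle. In non-irradiated stroma they were 198 to 397 CPM with dmPGE2 and 307 to 393 CPM with vehicle. Their part in the Creb1, Akap10, Rab32 and other pathway gene values was not tested.

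The genes whose group means followed Akap12 most closely were found by the root mean square difference of centred mean log2 CPM, over the 8 stroma groups and among 10798 genes of at least 5 CPM. They were Rapgef5 (0.26), an exchange factor for Rap GTPases, Kcnj8 (0.27), a potassium channel subunit, Cldn5 (0.34), a claudin of endothelial junctions, Egr3 (0.35), an early response transcription factor, and Lrrc32 (0.35), which docks latent TGF-beta. The median over those genes was 0.74, and Akap12 itself ranged over 2.27. In HSC the closest of 10252 genes over 5 groups were Pls1 (0.43), Specc1 (0.45), Jakmip1 (0.48), Igdcc4 (0.48) and Lmcd1 (0.55), beside a median of 1.42. The HSC values rest on a gene with no count in 10 of 20 libraries.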

How the data were processed

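RNA of 52 libraries, 1 per mouse, was analysed from gene tables. Per the submitters' processing notes the authors worked on build mm10 with STAR 2.5 and FastQC 0.11.5, with featureCounts from the Subread package (1.5.1) and with edgeR 3.36.0. The values used are raw counts per gene, deposited without normalisation per the file headers. Exon lengths are from the authors' table. The authors' 52 columns of log2 CPM and their fold changes were not used. HSC libraries were made from 1 ng of RNA with SMART-Seq v4 and stroma libraries from 100 ng with KAPA mRNA HyperPrep, per the labels' protocols. No source used here gives the strand setting of the counting. Exons of Prkar1b share bases with Gm15672 on the same strand in GENCODE, and Prkaca has an annotated pseudogene, so reads of these could be split.

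Groups were taken from the labels. One model per fraction (edgeR 4.0.16 in R 4.3.3, TMM factors, quasi-likelihood test, robust prior, terms for group and sex) had 14 residual degrees of freedom for HSC libraries and 23 for stroma. A filter on low counts removed 0 genes. The deposited genes each had a total of at least 84 counts over the HSC libraries and 148 over those of stroma. Shares of all genes are over these genes, and a gene not measured is one missing from them. Adjusted p-values are Benjamini-Hochberg over all genes of a comparison, with 0.05 as the threshold, and measure the spread between mice. CPM use TMM library sizes, and log2 CPM a prior count of 2. SE derive from the test statistic. The code was tested on simulated data. The members, lists and tests were chosen with earlier results of these data known. Named genes are the 10 members, the list members called against a control (at most 4 a list) and the 5 genes most like Akap12 per fraction. Alternatives included DESeq2 1.42.0, other scalings, no sex term, a mouse-number term, the compared groups alone and each library left out. A block for sets of consecutive mouse numbers was added after seeing the data. The replicate numbers were given here in accession order.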

Additional observations from a re-analysis of the deposited data

Results flagged for a closer look

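Of 130 combinations of a gene and a group, 10 had 1 library far from the other 3, where chance alone flags about 1 in 20. Akap12 was at 10.4 CPM in HSC misoprostol library 2, with the others at 0 to 0.487 CPM. Prkaca was at 68.5 CPM in HSC vehicle library 4, under the others at 107 to 114.4 CPM, and at 80.95 CPM in stroma sulprostone library 1, under the others at 90.8 to 91.4 CPM. Prkacb was at 116.98 CPM in stroma irradiated vehicle library 4, above 83.2 to 87.8 CPM. Prkar1b was at 4.52 CPM in HSC vehicle library 1 and at 2.71 CPM in HSC misoprostol library 4, above at most 0.128 CPM elsewhere in those groups, and at 3.51 CPM in non-irradiated dmPGE2 stroma library 4, above 1.29 to 1.67 CPM. Prkar2a was at 77.5 CPM in HSC sulprostone library 3, above 17.4 to 23.2 CPM. Pkia was at 22.3 CPM in non-irradiated dmPGE2 stroma library 1, above 1.47 to 2.51 CPM, and without that library its log2 fold change over vehicle is -0.61 instead of 1.12. Pkib was at 29.2 CPM in HSC sulprostone library 1, the library with the high granulocyte markers.

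In 3 of 40 combinations of a gene and a treatment, every HSC library lay on one side of the vehicle mean and every stroma library on the other. Prkaca was lower in HSC and higher in stroma with both agonists (differences of mean log2 CPM of -0.33 and 0.11) and with misoprostol (-0.30 and 0.07). Pkib was higher in HSC and lower in stroma with misoprostol (3.42 and -0.43). The difference between the fractions was not tested in any of the 3. The share of all genes that meet this rule was not counted, and the treatments share the vehicle libraries of their fraction. The count therefore cannot be set against a background.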

How the results depend on the processing

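Of 4941 alternative fold changes of the 9 kinase genes, 4912 kept their direction and side of the threshold or were uncalled in both (234 of these changed sign), 20 lost a call, 9 gained one and 0 reversed a called direction. Of 461 for Akap12, 457 stayed within the spread between replicates. The Akap12 interaction of dmPGE2 with irradiation, 0.18, reversed to -0.18 without non-irradiated dmPGE2 and vehicle library 4 (numbered apart from the other mice, and chosen after seeing the data for their osteoblast markers), and ranged from -0.10 to 0.40 with each library left out. The HSC misoprostol bound for Akap12, 7.17 on the log2 scale, ranged from 3.10 to 7.59 and was 2.64 without sulprostone library 1, vehicle library 2 and misoprostol library 2. DESeq2, the sex and mouse-number terms, the block, the filter and the fit of 2 groups alone give no such bound and were not run for it. The count of kinase genes called for rivenprost in stroma, 1, was 0 with the 2 groups alone and with library totals, and ranged from 0 to 1 with each library left out, with 18 of 32 ending the call (7 of the 8 compared libraries and 11 others, at adjusted p-values up to 0.0561 for the 11). The call has adjusted p-values of 0.00203 to 0.221 over its alternatives. With DESeq2 and with the mouse-number term the count was 1 for misoprostol (Prkar1a, adjusted p 0.0391 and 0.0297) and 1 for dmPGE2 without irradiation (Prkar1a, 0.0112 and 0.0175), where leaving out libraries gave 0 to 1. With the mouse-number term it was also 1 for both agonists (Prkar1a, 0.0245). The share of all genes called with that term is not given here, so its calls stand without a background. For the 13 calls of pathway genes, 527 alternatives chosen after seeing the data kept every direction, and 105 ended a call. Leaving out HSC sulprostone library 1 called 0 kinase genes. Over all genes the rivenprost stroma count of 172 ran from 2 to 379 over the fits and from 49 to 196 with each library left out. The labels give mouse numbers and no replicate numbers, and do not say what consecutive numbers share. A replicate block of sets of consecutive mouse numbers, chosen after seeing the data, called 1 kinase gene for rivenprost, 1 for misoprostol, 1 for both agonists and 1 for dmPGE2 without irradiation in stroma (Prkar1a each time) and 0 in HSC, and kept the 9 pathway calls against a control. Same-set libraries of 2 groups deviated together by over 0.1 in correlation in 4 of 4 sets for rivenprost and misoprostol but in 3 of 4 for both agonists, and in HSC in at most 1 of 4. Libraries of a set also share sex, which was not taken out, and a stretch of mouse numbers. These correlations therefore cannot tell a pairing from a difference by sex or number, and the sets are not a stated pairing.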
